A study of Mus musculus with 2 samples.

Results

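The proteasome subunit genes and the other genes whose symbols begin with Psm and a class letter from a to g were followed in RANKL-treated RAW264.7 cells with and without knockdown of Cpeb4. Members were taken by symbol alone (Psma, Psmb, Psmc, Psmd, Psme, Psmf or Psmg followed by a digit, names with -ps left out), which gave 49 of the 18987 genes in the table. All 49 passed the filter of a mean of at least 1 CPM (counts scaled to a common library size) over both libraries, as did 12086 genes in all. By their established roles, 8 were 20S alpha subunits, 7 constitutive 20S beta subunits, 3 inducible 20S beta subunits, 6 ATPases of the 19S particle, 11 other 19S subunits, 6 activators or inhibitors (Psme2b, a near copy of Psme2, among them) and 7 assembly chaperones. The remaining one, Psmc3ip, encodes a recombination factor and not a proteasome component. It was taken only because of its name and is kept apart below. Psmb11, the thymus-restricted beta subunit gene, is not analysed here.

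RAW264.7 cells are an established line of mouse macrophage character, and the cytokine RANKL turns them into osteoclasts, the cells that resorb bone. The Cpeb4 shRNA group was 1 library of RAW264.7 cells carrying an shRNA against Cpeb4, which encodes a cytoplasmic polyadenylation element-binding protein, and the control group was 1 library of RAW264.7 cells carrying a control shRNA. Cells of both groups were plated at 7500 per cm2, were given RANKL at 100 ng/ml 24 h later, and were collected on day 3 per the series title. The labels state no number of cultures or clones, so each difference below is one between 2 libraries, with no replicate check and no test.

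The proteasome is the protease that degrades ubiquitin-tagged proteins in the cytosol and nucleus. Its 20S core is a barrel of stacked rings, with alpha subunits that gate the ends and beta subunits of which Psmb5, Psmb6 and Psmb7 carry the catalytic sites. The 19S particle binds ubiquitin chains, unfolds the substrate and feeds it into the core. Immune cells and cells under interferon replace the catalytic beta subunits by the inducible Psmb8, Psmb9 and Psmb10, and use the Psme1-Psme2 ring as an alternative cap, which alters the peptides made for MHC class I. In osteoclast precursors the proteasome is best known for degrading the inhibitors of NF-kB downstream of RANK.

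The upstream sequences of Psmb8, Psmb9, Psme1 and Psme2 are shown first. These had the highest log2 ratios of the members named as inducible (2.99, 2.42, 0.97 and 1.14). Psme1 lay near the chaperone gene Psmg3 (0.92), and Psme2 summed with its near copy Psme2b was at 0.71. The sequences are RefSeq promoter windows of build GRCm38.p6, each running from 250 bases before to 50 bases after an annotated start. Each is written along the gene's own strand. The windows were chr17:34197945-34198244 (plus strand) for Psmb8, chr17:34187281-34187580 (minus strand) for Psmb9, chr14:55578244-55578543 (plus strand) for Psme1 and chr14:55591052-55591351 (minus strand) for 1 of the 2 listed starts of Psme2. Capitals mark matches, on either strand, to the motifs CCAAT (NF-Y), TGANNNNGC (the core of the antioxidant response element, to which NRF1 and NRF2 bind), GAAA repeated after any 2 bases (the core of the interferon-stimulated response element, ISRE), TTTCCCGC and TTTGGCGC (both E2F).
Psmb8: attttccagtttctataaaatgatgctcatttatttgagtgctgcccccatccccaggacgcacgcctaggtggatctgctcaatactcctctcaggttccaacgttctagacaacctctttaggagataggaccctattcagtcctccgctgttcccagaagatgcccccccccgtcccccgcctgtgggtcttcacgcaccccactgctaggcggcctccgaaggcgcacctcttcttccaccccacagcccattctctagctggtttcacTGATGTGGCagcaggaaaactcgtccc
Psmb9: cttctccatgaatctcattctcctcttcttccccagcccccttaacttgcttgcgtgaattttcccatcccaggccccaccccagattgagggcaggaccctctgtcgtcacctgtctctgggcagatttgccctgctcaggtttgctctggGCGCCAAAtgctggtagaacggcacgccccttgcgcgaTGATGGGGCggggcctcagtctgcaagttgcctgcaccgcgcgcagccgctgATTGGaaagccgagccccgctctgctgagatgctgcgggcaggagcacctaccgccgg
Psme1: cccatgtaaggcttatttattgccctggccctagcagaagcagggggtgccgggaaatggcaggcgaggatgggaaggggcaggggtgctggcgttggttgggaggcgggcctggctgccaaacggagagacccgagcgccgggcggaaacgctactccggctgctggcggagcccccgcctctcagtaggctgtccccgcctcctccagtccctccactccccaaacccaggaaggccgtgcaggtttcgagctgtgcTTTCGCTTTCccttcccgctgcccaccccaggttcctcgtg
Psme2: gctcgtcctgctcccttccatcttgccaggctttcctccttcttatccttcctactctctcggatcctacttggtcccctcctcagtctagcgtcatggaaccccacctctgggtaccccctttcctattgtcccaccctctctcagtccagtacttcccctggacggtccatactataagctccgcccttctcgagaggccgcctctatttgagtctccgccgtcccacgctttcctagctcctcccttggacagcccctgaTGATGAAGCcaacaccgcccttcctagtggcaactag
In Psmb8 the capitals mark a TGANNNNGC match that began 24 bases after the start. In Psmb9 they mark, in the order printed, TTTGGCGC in reverse complement 98 bases upstream, TGANNNNGC 60 bases upstream and CCAAT in reverse complement 8 bases upstream. In Psme1 they mark the ISRE core in reverse complement, 10 bases after the start. In Psme2 they mark TGANNNNGC, 14 bases after the start. The Psmb9 window shared 275 bases with that of Tap1, the peptide transporter gene transcribed the other way.

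Promoter windows were found for 41 of the 49 members. TGANNNNGC occurred in 23 of the 41 (56.1%) and in 45.0% of the 27025 genes with a window. CCAAT occurred in 14 of 41 (34.1%) and in 41.1% of all genes. The ISRE core occurred in 5 of 41 (12.2%), namely Psmb3, Psmd4, Psmd9, Psme1 and Psmg4, and in 3.99% of all genes. The E2F words TTTCCCGC and TTTGGCGC occurred in 2 members (Psmc2 and Psmc4) and 1 member (Psmb9), against 1.24% and 0.585% of all genes. Members with and without TGANNNNGC had median log2 ratios of 0.23 and 0.22. The medians were 0.29 with and 0.19 without CCAAT, 0.49 with and 0.21 without the ISRE core, and 0.02 with and 0.23 without TTTCCCGC. A match describes letters in a window and no more.

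The libraries held 119350322 counts (Cpeb4 shRNA) and 79399680 counts (control). Cpeb4 itself had 104 CPM in the Cpeb4 shRNA library and 345 CPM in the control library, a log2 ratio of -1.73. Of 14 osteoclast and macrophage markers, 13 passed the filter and 9 of these were lower past 2-fold with Cpeb4 shRNA, against 11.8% of all genes. The macrophage marker Cd68 (-1.04) was among the 9. The 4 within 2-fold were the osteoclast marker Nfatc1 (-0.05) and the macrophage markers Cd14 (0.35), Itgam (-0.44) and Csf1r (-0.61). Ctsk, the collagen-degrading protease gene, had 4175 CPM in the Cpeb4 shRNA library and 24234 CPM in the control library. Adgre1, a macrophage marker, was near 0 with 101 and 12 counts in the Cpeb4 shRNA and control libraries. Of 14 markers of other cell types 3 were listed, none past the filter, with summed levels of 0.263 and 0.451 CPM in the Cpeb4 shRNA and control libraries. The other 11 have no value here, since the table lists only genes with at least 1 count in both libraries. In bulk RNA a change in the share of cells of one kind and a change in RNA per cell cannot be told apart.

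Most of the proteasome was within 2-fold between the libraries, while Psmb8, Psmb9 and Psme2, which belong to the inducible arm, were higher in the Cpeb4 shRNA library. Psmb10, of the same arm, was not past 2-fold. Of the 49 members 4 were at least 2-fold higher, against 14.6% of all genes, and 0 were at least 2-fold lower, against 11.8% of all genes. The 4 were Psmb8, Psmb9, Psme2 and Psmc3ip, so 3 of 48 remained without the last. At 1.5-fold the counts were 8 higher (26.4% of all genes) and 0 lower (22.1% of all genes), with Psme1, Psmg3, Psmg2 and Psma5 joining. The members' median log2 ratio was 0.23, against 0.05 for all genes. Their interquartile range was -0.03 to 0.45, against -0.51 to 0.62 for all genes. A total of 35 members lay above 0 (52.5% of all genes did), 34 of them with the whole 95% counting interval above 0 (47.5% of all genes), and 12 had it wholly below 0 (42.6% of all genes). Scaling moved all ratios together, and under 5 scalings 33 members stayed above 0, Psma6 stayed below 0 and the sign of 15 depended on the scaling. Member counts made up 0.523% of all counts in the Cpeb4 shRNA library and 0.406% in the control library, without TMM scaling. With TMM scaling the summed member counts were 1.09-fold higher with Cpeb4 shRNA (log2 ratio 0.13).

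**Figure D1:**
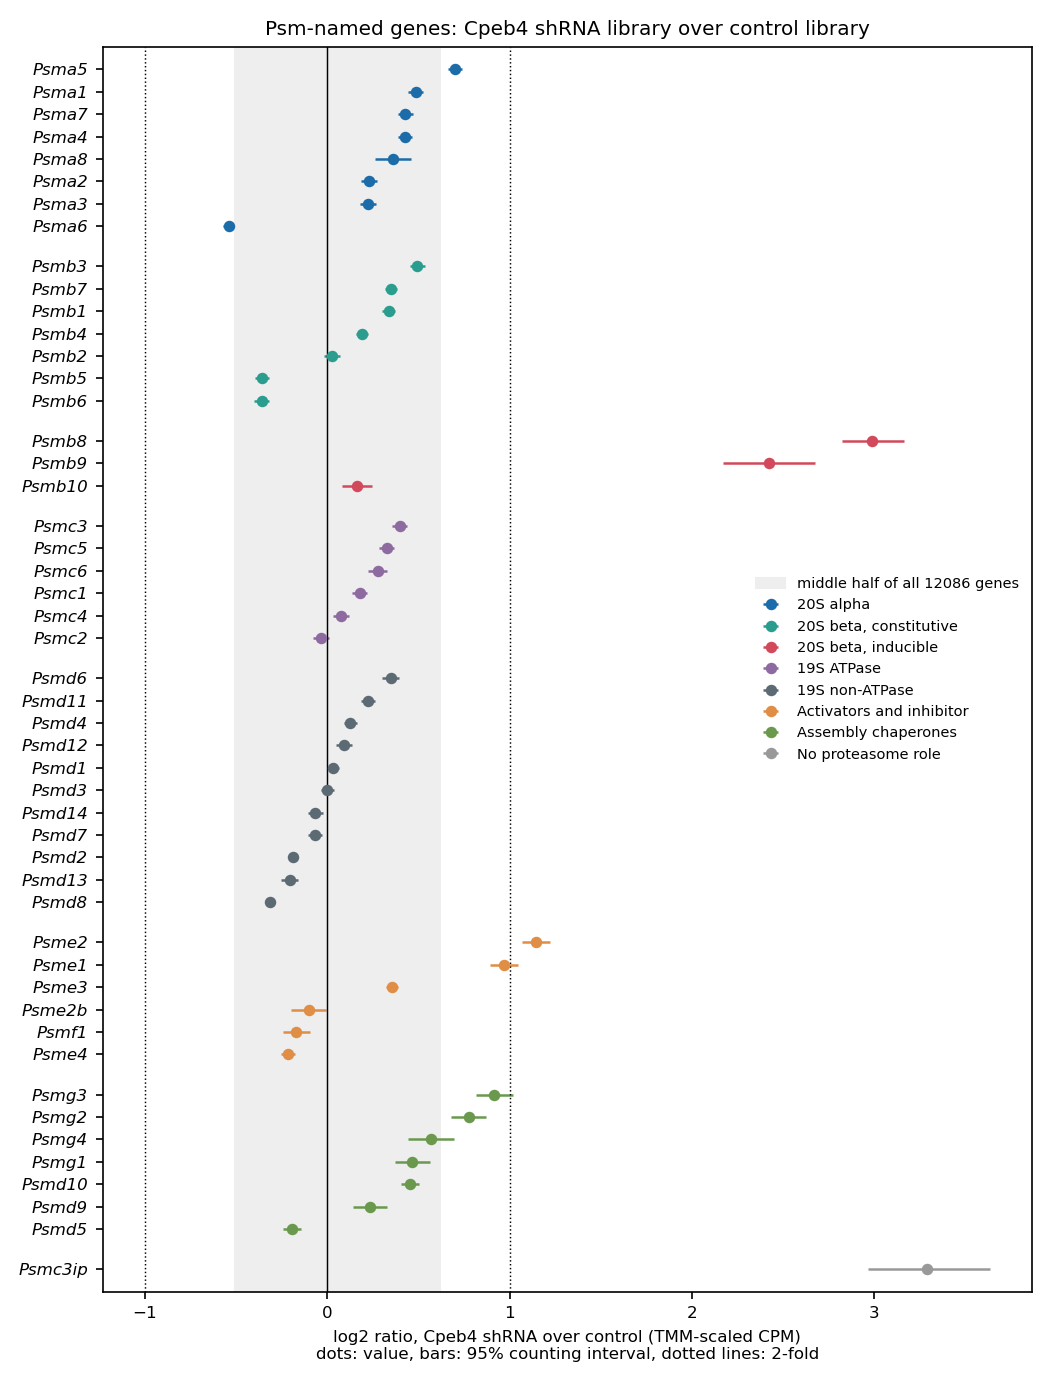
Log2 ratio of the Cpeb4 shRNA library over the control library (TMM-scaled CPM, x axis) for the 49 Psm-named genes, grouped by role, with 95% Clopper-Pearson counting intervals and the interquartile range of all 12086 genes in grey. Psmb8, Psmb9, Psme2 and Psmc3ip lie right of the 2-fold line, and Psma6 is the lowest at -0.54.

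The largest differences among true subunits belonged to a pair of inducible beta genes that lie close together in the MHC on chromosome 17. Psmb8 (ENSMUSG00000024338; mm10, 34197721 to 34201454, plus strand, 6 exons), which replaces Psmb5 at the chymotrypsin-like site, had 4350 counts (33.6 CPM) with Cpeb4 shRNA and 310 counts (4.23 CPM) with control shRNA. That is 7.94-fold higher, a log2 ratio of 2.99 (95% counting interval 2.82 to 3.16), and it ranked 302 from the top among the 12086 genes. Psmb9 (ENSMUSG00000096727; 34181987 to 34187764, minus strand, 6 exons), which replaces Psmb6 at the caspase-like site, had 1380 counts (10.7 CPM) with Cpeb4 shRNA and 146 counts (1.99 CPM) with control shRNA. It was 5.35-fold higher, with a log2 ratio of 2.42 (2.17 to 2.68). Psmb10 (ENSMUSG00000031897; chromosome 8, 105935735 to 105938444, minus strand), the inducible counterpart of Psmb7, did not share this difference. It had 27.9 CPM in the Cpeb4 shRNA library and 24.9 CPM in the control library, a log2 ratio of 0.16 (0.08 to 0.25).

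The genes beside Psmb8 and Psmb9 differed far less. Tap1, whose exons overlap those of Psmb9 on the opposite strand over 212 bases, had 25.1 CPM in the Cpeb4 shRNA library and 17.4 CPM in the control library (log2 ratio 0.53). Tap2, the other chain of the peptide transporter, had 60.8 and 66.6 CPM in the Cpeb4 shRNA and control libraries (-0.13). How counting handled strand is not stated, so reads from the overlaps of Psmb9 with Tap1 (15.7% of the Psmb9 transcript) and of Psmb8 with the antisense gene Gm20496 (186 bases, 11.4%) are uncertain.

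Of the 3 catalytic subunits that the inducible ones displace, Psmb5 and Psmb6 were lower and Psmb7 higher, and the sign for Psmb5 and Psmb6 turned with reference-gene scaling (0.04 each). Psmb5, the chymotrypsin-like subunit gene, had 100.02 CPM in the Cpeb4 shRNA library and 128 CPM in the control library (log2 ratio -0.36, -0.39 to -0.32). Psmb6, the caspase-like one, had 84.7 CPM in the Cpeb4 shRNA library and 109 CPM in the control library (-0.36, -0.40 to -0.32). Psmb7, the trypsin-like one, went the other way with 171 CPM in the Cpeb4 shRNA library and 134 CPM in the control library (0.35, 0.32 to 0.38). Reads from 405 bases of its transcript (34.9%) are uncertain, since Nek6 overlaps them on the opposite strand. Nek6 had 6.80 CPM in the Cpeb4 shRNA library and 2.43 CPM in the control library (1.48). Psmb5 shares 57.1% of its 50-base words with other transcripts, mainly the processed pseudogene Gm3375, whose own row stood at 8863 counts in the Cpeb4 shRNA library and 6205 counts in the control library (-0.31).

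Within a library, the share of the inducible gene in the counts of its catalytic pair does not depend on how the libraries are scaled. These are shares of RNA. Protein was not measured, so they do not give the make-up of assembled proteasomes. Counts per kb of transcript put Psmb8 at 15.7% (15.2 to 16.1) of Psmb8 plus Psmb5 in the Cpeb4 shRNA library and at 1.79% (1.60 to 2.004) in the control library. Psmb9 made up 6.92% (6.56 to 7.29) of Psmb9 plus Psmb6 in the Cpeb4 shRNA library and 1.07% (0.904 to 1.26) in the control library. Psmb10 made up 12.6% (12.2 to 13.0) of Psmb10 plus Psmb7 in the Cpeb4 shRNA library and 14.1% (13.5 to 14.7) in the control library. The control library thus held Psmb10 well above Psmb8 and Psmb9 (19.02, 2.60 and 1.47 CPM per kb), while in the Cpeb4 shRNA library Psmb8 came level with Psmb10 (20.7 and 21.3 CPM per kb) and Psmb9 stayed below both at 7.89 CPM per kb. Between the libraries the ratio of Psmb8 to Psmb5 differed 10.2-fold (Wald interval on the counts 9.03 to 11.4) and that of Psmb9 to Psmb6 6.87-fold (5.78 to 8.17). For Psmb10 to Psmb7 the ratio of ratios was 0.879 (0.827 to 0.935). The intervals leave out uncertainty over shared sequence. Psmb5 shares 57.1% of its 50-base words with other transcripts, mainly Gm3375, and the Psmb7 transcript overlaps Nek6 over 405 bases. The Gm3375 row (8863 counts in the Cpeb4 shRNA library, 6205 in the control library) was not added to Psmb5. The shares also depend on the length assigned to each gene. With the union of all annotated exons as length, Psmb8 stood at 8.20% in the Cpeb4 shRNA library and 0.872% in the control library, and Psmb10 at 24.7% and 27.2% in the same order. Psmb8 then stood below Psmb10 in the Cpeb4 shRNA library as well, at 9.94 and 16.4 CPM per kb, so their like levels above rest on the transcript chosen.

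**Figure D2:**
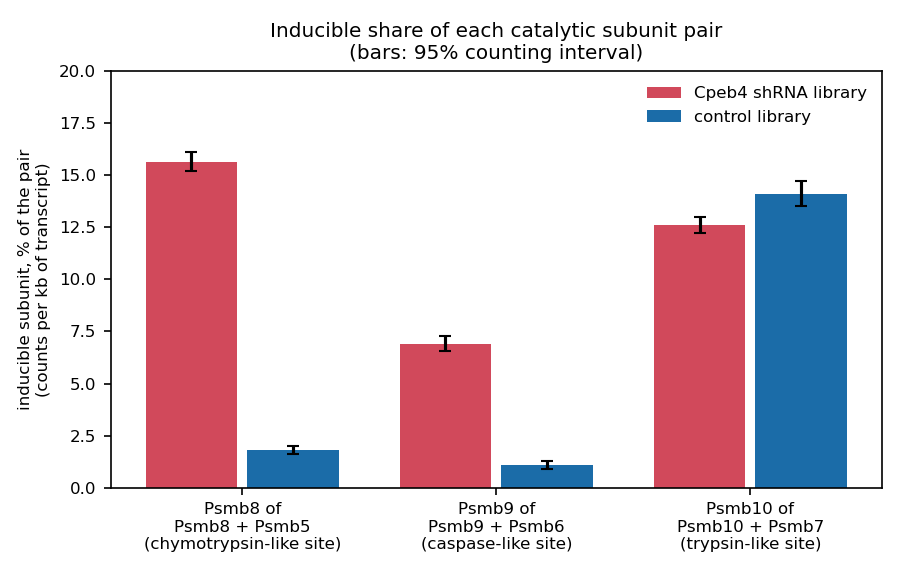
Inducible subunit gene as a percentage of the RNA of each catalytic pair (counts per kb of representative transcript, y axis) in the Cpeb4 shRNA and control libraries, with 95% Clopper-Pearson counting intervals. Psmb8 and Psmb9 take larger shares in the Cpeb4 shRNA library (15.7% and 6.92%, against 1.79% and 1.07%), and Psmb10 a slightly smaller one (12.6% against 14.1%). The intervals leave out uncertainty over sequence shared or overlapping with other genes.

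The activators split by type. Psme1 and Psme2, whose products form the interferon-inducible PA28 ring, lie on chromosome 14 with Emc9 between them. Psme2 (ENSMUSG00000079197; 55587441 to 55591113, minus strand) had 53.2 CPM in the Cpeb4 shRNA library and 24.0 CPM in the control library, a 2.21-fold higher level (log2 ratio 1.14, 1.07 to 1.22). Psme1 (ENSMUSG00000022216; 55578123 to 55581529, plus strand) had 49.4 CPM in the Cpeb4 shRNA library and 25.2 CPM in the control library (0.97, 0.89 to 1.04), just inside the 2-fold line. Emc9, an endoplasmic reticulum membrane complex gene, had 5.00 CPM in the Cpeb4 shRNA library and 9.19 CPM in the control library (-0.88), and on the upstream side of Psme2 Rnf31, a ubiquitin ligase gene, was at 0.05 and the interferon signalling gene Irf9, beyond it, at 0.78. Psme3, the gene of the nuclear PA28 gamma cap, had 181 CPM in the Cpeb4 shRNA library and 141 CPM in the control library (0.36). Psme4, which encodes the PA200 cap, had 108 and 125 CPM in the Cpeb4 shRNA and control libraries (-0.22), and Psmf1, the PI31 regulator gene, had 28.5 and 32.1 CPM (-0.17). Per length, Psme1 amounted to 0.655 of Psme3 in the Cpeb4 shRNA library and 0.429 of it in the control library. With exon union length the ratios were 0.365 in the Cpeb4 shRNA library and 0.239 in the control library.

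Psme2b, a retrocopy of Psme2, needs caution. It shares 69.3% of its 50-base words with other transcripts, nearly all of them with Psme2. Its row stood at 2339 counts in the Cpeb4 shRNA library and 1420 counts in the control library (log2 ratio -0.10). Psme2 and Psme2b summed had 9219 counts in the Cpeb4 shRNA library and 3181 counts in the control library, a log2 ratio of 0.71 (0.66 to 0.77), which is under 2-fold.

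Among the alpha subunits, which form the outer rings of the core, 7 of 8 lay above 0 (52.5% of all genes did). Their median was 0.39. Psma5 was highest with 159 CPM in the Cpeb4 shRNA library and 97.99 CPM in the control library (0.70, 0.66 to 0.74). Psma1, Psma7 and Psma4 followed at 0.48, 0.43 and 0.43. Psma6 was the lowest of all 49 members, with 135 CPM in the Cpeb4 shRNA library and 197 CPM in the control library (-0.54, -0.57 to -0.51). Per length it was the most abundant alpha gene in the control library, but had no clear lead in the Cpeb4 shRNA library. In the Cpeb4 shRNA library Psma6, Psma4, Psma7 and Psma5 stood at 130, 130, 129 and 128 CPM per kb, while in the control library Psma6 stood at 189 CPM per kb and Psma4, the next, at 96.4. With exon union length Psma5 stood above Psma6 in the Cpeb4 shRNA library, at 120 and 110 CPM per kb. In the control library it then stood below Psma6, at 74.2 and 159 CPM per kb. No 50-base word of Psma6 occurs in another annotated transcript. Psma5 shares 54.5% of its words with transcripts of Gm8394 and the processed pseudogene Gm12989, and the row of Gm12989 went the same way at 10.7 CPM in the Cpeb4 shRNA library and 6.08 CPM in the control library (0.81).

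Psma8 encodes the alpha subunit of the testis-type proteasome, known from male germ cells. Its row held 2738 counts in the Cpeb4 shRNA library and 1206 counts in the control library (0.36, 0.26 to 0.46), and none of its 50-base words occurs elsewhere in the annotation. Per length it was 8.81% (8.48 to 9.14) of Psma8 plus Psma7, its counterpart in the common proteasome, in the Cpeb4 shRNA library and 9.19% (8.68 to 9.71) in the control library. With exon union length these shares were 18.0% in the Cpeb4 shRNA library and 18.7% in the control library.

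The other constitutive beta genes ranged from 0.03 for Psmb2 to 0.49 for Psmb3, and all 7 of the class had a median of 0.19. Psmb3 had 127 CPM in the Cpeb4 shRNA library and 90.5 CPM in the control library, but 55.8% of its words are shared with transcripts of other annotated genes. Psmb4 (175 CPM in the Cpeb4 shRNA library, 153 CPM in the control library) and Psmb1 (144 and 114 CPM in the same order) were at 0.19 and 0.34. Over all 18 core members the median was 0.34.

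With TMM scaling the 19S particle stood close to 0 as a class. Its 17 members had a median of 0.07, ranged from -0.31 to 0.40, and 0 were past 1.5-fold in either direction. Of all genes 26.4% were higher and 22.1% lower past 1.5-fold. Total-count and reference-gene scaling gave 19S medians of 0.31 and 0.47, beside medians of 0.28 and 0.45 for all genes. They put 1 and 5 of the 19S members past 1.5-fold higher, while the 26.4% and 22.1% hold for TMM scaling only. With TMM scaling the summed counts of the 19S members gave a log2 ratio of 0.02 (0.01 to 0.03), against 0.21 (0.20 to 0.22) for the core. Among the ATPases, the motor that unfolds substrates, Psmc3 was highest with 127 CPM in the Cpeb4 shRNA library and 96.8 CPM in the control library (0.40), and Psmc2 lowest with 95.2 and 97.5 CPM in the same order (-0.03). Among the non-ATPase subunits Psmd6 was highest with 88.7 CPM in the Cpeb4 shRNA library and 69.7 CPM in the control library (0.35). Psmd8, a lid subunit gene, was lowest with 209 and 259 CPM in the Cpeb4 shRNA and control libraries (-0.31). Psmd4, the ubiquitin receptor gene, was at 0.13 and Psmd14, the gene of the deubiquitinase that removes the chain, at -0.07. Psmd2, which encodes the large scaffold of the base, had the most counts of any member (40328 in the Cpeb4 shRNA library, 26034 in the control library) and was at -0.19.

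Of the 7 assembly chaperones 6 lay above 0 (52.5% of all genes did), with a median of 0.47 against 0.05 for all genes. At 1.5-fold 2 were higher (26.4% of all genes) and 0 lower (22.1% of all genes). The Psmg genes encode the PAC chaperones that assemble the alpha ring. Psmg3 had 26.3 CPM in the Cpeb4 shRNA library and 14.0 CPM in the control library (0.92, 0.81 to 1.02). Psmg2 had 27.9 CPM in the Cpeb4 shRNA library and 16.3 CPM in the control library (0.77, 0.68 to 0.87), and Psmg4 and Psmg1 followed at 0.57 and 0.47. Of the chaperones of the 19S base, Psmd10 (gankyrin) was at 0.45, Psmd9 at 0.23 and Psmd5 at -0.20. Part of the Psmg3 row is uncertain, since 26.8% of its transcript overlaps the annotated gene Gm26938 on the same strand.

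**Figure D3:**
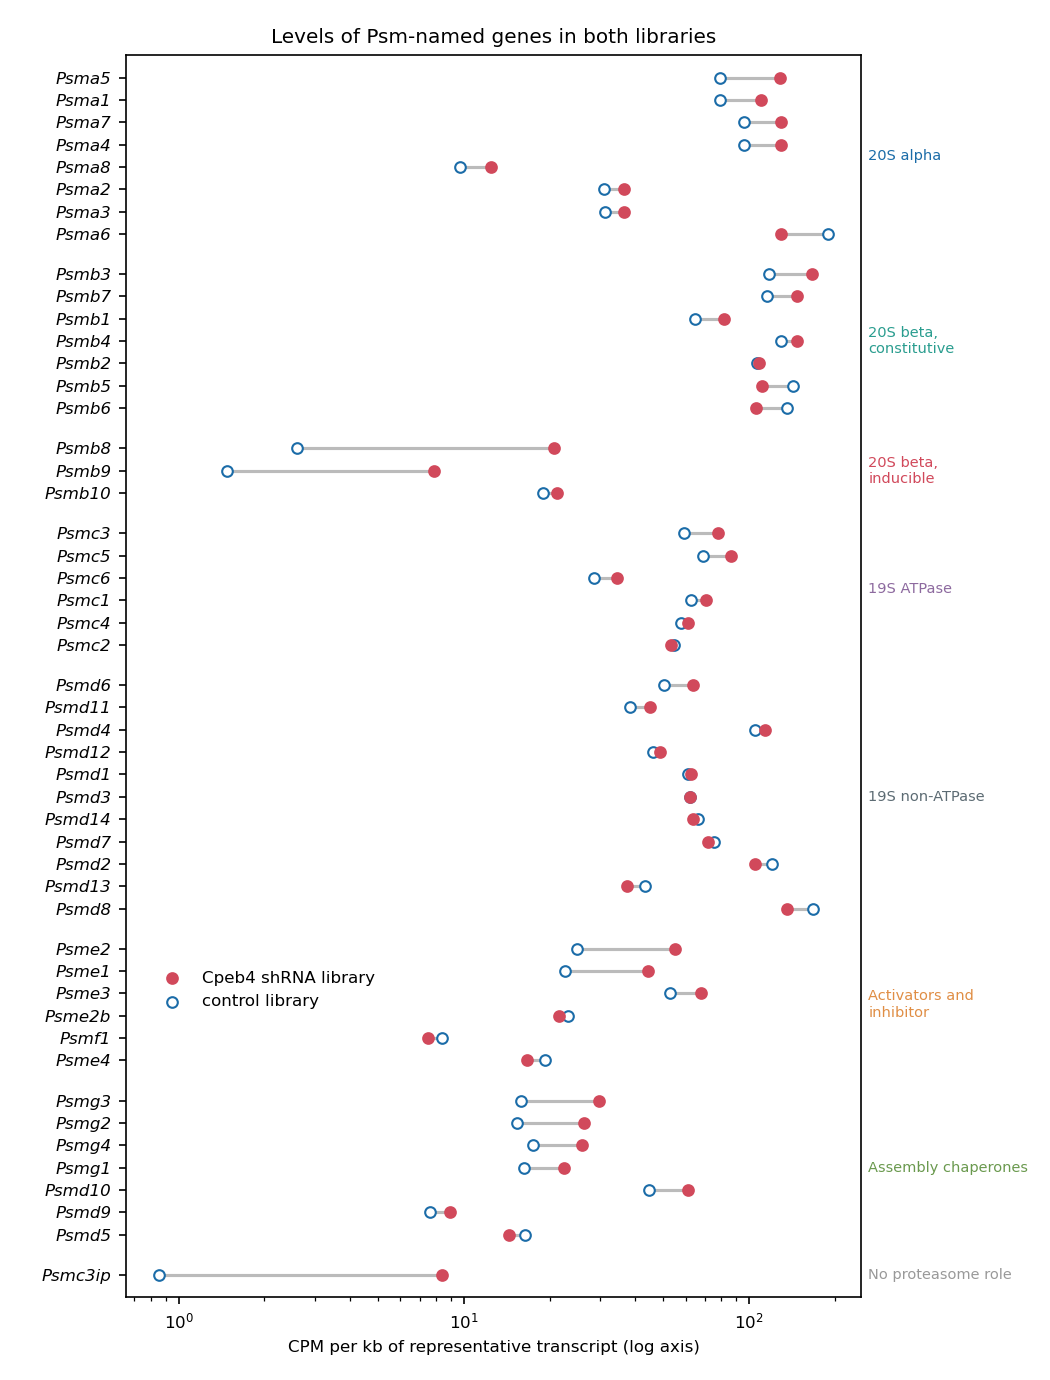
Level of each of the 49 Psm-named genes in CPM per kb of representative transcript (log axis) in the Cpeb4 shRNA library (filled) and the control library (open). Psmb8, Psmb9 and Psmc3ip show the widest gaps, and the gap of Psma6 runs the other way, with 130 in the Cpeb4 shRNA library and 189 in the control library.

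RNA levels of the genes of the complex were not equal although its subunits are assembled in fixed numbers. Per length, the 31 constitutive members of core and 19S ranged from 34.6 to 166 CPM per kb in the Cpeb4 shRNA library and from 28.5 to 189 in the control library. The SD of log2 CPM per kb over these genes was 0.68 in the Cpeb4 shRNA library and 0.72 in the control library. The regulator gene Psmf1, Psmb9 and the chaperone gene Psmd9 were the lowest proteasome genes in the Cpeb4 shRNA library, at 7.49, 7.89 and 8.96 CPM per kb. These are levels of genes that differ in transcript length, and the length chosen for each enters the value.

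Psmc3ip, which encodes a partner of meiotic recombinases, had 1401 counts in the Cpeb4 shRNA library and 81 counts in the control library (3.29, 2.97 to 3.63). Its transcript overlaps Mlx on the opposite strand over 385 bases, and Mlx had 39.3 CPM in the Cpeb4 shRNA library and 70.2 CPM in the control library. The proliferation marker Mki67, given beside it because Psmc3ip acts in recombination, had 530 CPM in the Cpeb4 shRNA library and 16.2 CPM in the control library (5.03). Whether the 2 differences are related was not tested.

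Genes linked to the proteasome that lack a Psm name were taken from lists by pathway. Beside the 2-fold counts of these lists, 14.6% of all genes were higher and 11.8% lower. Of the 2 remaining subunits, Sem1 was at 0.42 and the ubiquitin receptor gene Adrm1 at -0.16. Among 6 assembly and partner genes 1 was at least 2-fold higher and 0 lower, with a median of -0.01 (-0.05 to 0.39 over the scalings). Ipo9, an importin gene whose product carries proteasomes into the nucleus, had 90.9 CPM in the Cpeb4 shRNA library and 36.8 CPM in the control library (1.30), Ecpas was at 0.42, and Txnl1 and Fbxo7 were lowest at -0.30 and -0.62. Pomp, the maturation factor of the core, was at -0.20. Of 13 shuttle and proteasome-bound enzyme genes 0 were higher and 1 was lower. Ubqln4 was highest at 0.84, and the proteasome-bound deubiquitinase genes Usp14 and Uchl5 were at 0.59 and 0.52. Zfand2a, a stress-induced proteasome partner, had 37.1 CPM in the Cpeb4 shRNA library and 119 CPM in the control library (-1.68), and Ubqln2 was at -0.63. All 6 ubiquitin and E1 genes were within 2-fold. Among them Rps27a, which encodes ubiquitin fused to a ribosomal protein, was at 0.90 and Ubb at -0.14.

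The lists of genes around NRF1 and of the p97 system had medians below 0 under all 5 scalings (-0.57 to -0.13 and -0.58 to -0.14). NRF1, encoded by Nfe2l1, is the transcription factor that raises proteasome genes when proteasome activity falls. Nfe2l1 had 162 CPM in the Cpeb4 shRNA library and 384 CPM in the control library (-1.24, -1.27 to -1.22). Of the 8 genes in its list 3 were lower past 2-fold (11.8% of all genes) and 0 higher (14.6% of all genes). The list median was -0.53. Under reference-gene scaling 1 was lower past 2-fold, against 6.88% of all genes. Herpud1, an endoplasmic reticulum stress gene, was lowest at -3.26, Ddi2, the protease that activates NRF1, had 153 CPM in the Cpeb4 shRNA library and 154 CPM in the control library, and Nfe2l2 was highest at 0.02. In the p97 system, which extracts proteins for the proteasome, 1 of 12 genes was above 0 (52.5% of all genes were) and all were within 2-fold, with a median of -0.54. That sign count rested on the scaling, with 5 of 12 above 0 under total-count and under reference-gene scaling. All genes moved up with these 2 scalings as well, to medians of 0.28 and 0.45, and the 52.5% holds for TMM scaling only. Vcp, the gene of p97 itself, had 417 CPM in the Cpeb4 shRNA library and 663 CPM in the control library (-0.67). Ubxn6 (-0.96) and Ngly1 (-0.72) were lowest in that list, and Nsfl1c (0.07) and Ubxn7 (-0.06) highest.

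Genes that work with the inducible subunits gave no common direction, and the sign of both list medians depended on the scaling (-0.15 to 0.29 for MHC class I loading, -0.05 to 0.39 for interferon-linked factors). Of 10 MHC class I loading genes 1 was at least 2-fold higher (14.6% of all genes) and 2 were lower (11.8% of all genes). Their median was -0.11. Erap1, the peptide-trimming protease gene, had 38.2 CPM in the Cpeb4 shRNA library and 17.3 CPM in the control library (1.14), and Tapbp (tapasin) was at 0.99. B2m, the light chain gene, was at 0.31. The chaperone genes Calr and Pdia3, which also serve general protein folding, were lowest at -2.34 and -1.92. Of 8 interferon-linked factors that can act on the inducible genes 0 were higher and 1 was lower, against the same shares of all genes. Their median was -0.01. Irf9 (0.78) and Irf2 (0.69) were highest, and Irf1 was at 0.25. Irf8, the 1 that was lower, had 86 counts in the Cpeb4 shRNA library and 99 counts in the control library (-1.02). Its counting interval of -1.46 to -0.59 spanned the 2-fold line. Stat3 was at -0.53. The part of these factors, and of the lower osteoclast markers, in the Psmb8 and Psmb9 difference was not tested.

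**Figure D4:**
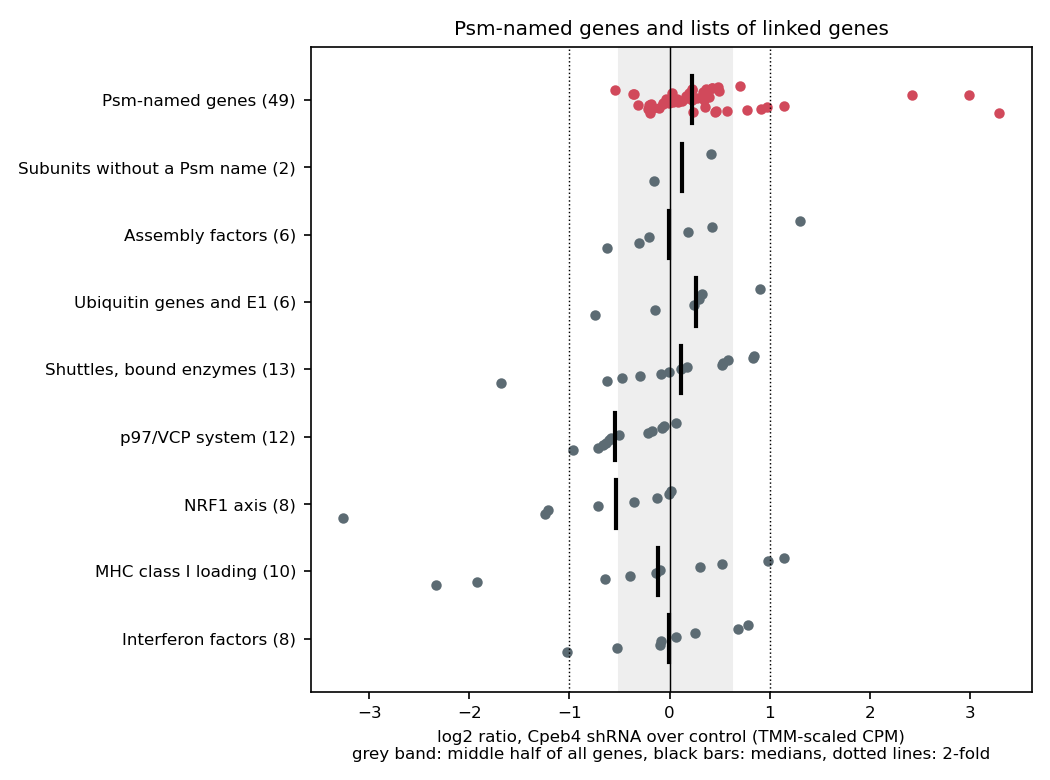
Log2 ratio of the Cpeb4 shRNA library over the control library (x axis) for the Psm-named genes (top) and for 8 lists of linked genes past the filter, with the number of genes in brackets, medians as black bars and the interquartile range of all genes in grey. The p97 and NRF1 lists have medians of -0.54 and -0.53, below the 0.23 of the Psm-named genes.

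CPEB proteins bind the cytoplasmic polyadenylation element in 3′ UTRs, searched here as TTTTAT or TTTTAAT in the representative transcript. It occurred in 19 of the 49 members (38.8%). Over all 49 the 3′ UTRs had a median length of 213 bases. It occurred in 60.4% of the 10396 protein-coding genes with a 3′ UTR past the filter (median 1016 bases), and in 31.2% of those with a 3′ UTR whose length lay in the interquartile range of the members. The element of 3 members is shown with 10 bases on each side, the element in capitals, because these were the highest of the alpha, constitutive beta and chaperone genes.
Psma5: gtgtgtgtttTTTTATgaagtctgta
Psmb3: ttgtttttctTTTTAATaaaattgcct
Psmg3: gggaagatttTTTTATtaaaaataaa
The elements ended 47, 17 and 40 bases before the annotated transcript end of Psma5, Psmb3 and Psmg3. Members with an element had a median log2 ratio of 0.34 and those without one 0.15. Over the protein-coding genes with a 3′ UTR in that interquartile range (median 311 bases) the medians were 0.25 with and 0.00 without one. The members were not cut to that range. Those with an element included Psmd5, Psmf1 and Psma2, with 3′ UTRs of 2842, 2822 and 2171 bases. The percentages and medians of members and of these genes are thus not matched for length. Psmb8, Psmb9, Psme1 and Psme2 carried no such element in the transcript examined.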

How the data were processed

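The authors deposited a single table of raw gene counts. HISAT2 and the build mm10 are named, per the submitters' processing notes. Their counter, annotation and strand setting were not given in the sources used here. Every listed gene has at least 1 count in both libraries.

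Counts were scaled with TMM (edgeR 4.0.16, R 4.3.3; factors 1.08 for the Cpeb4 shRNA library and 0.922 for the control library). Log2 ratios put the Cpeb4 shRNA library over the control library, on scaled counts without a pseudocount. Intervals are exact 95% Clopper-Pearson intervals of a gene's share of its summed counts. They cover counting error only and not variation between cultures. PCR copies are not independent molecules, so the intervals can be too narrow even for counting error. Their median width was 0.08 log2 units over members. With 1 library per group there was no test, and genes were counted by size, at least 2-fold. A count of 3 equals 0.0232 CPM in the Cpeb4 shRNA library and 0.0410 CPM in the control library.

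Positions, lengths, 3′ UTRs and 50-base words came from GENCODE M21 (GRCm38, the assembly of mm10), which held 18935 of the 18987 identifiers. The representative transcript was the longest APPRIS principal one, or where there was none the longest basic or coding one. Promoters came from RefSeq (GRCm38.p6).

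Named genes were all members, plus the 2 highest and 2 lowest of each linked list and set key genes, of which some are not reported here. Neighbours, copies and overlapping genes were named after their values were seen. Members and lists were chosen with earlier results of these data known. The ratio function was tested on simulated counts.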

Additional observations from a re-analysis of the deposited data

How the results depend on the processing

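No paired analysis was possible because there was a single library on either side. Scaling set the level of every ratio. Total-count scaling raised all by 0.23 and scaling to 18 reference genes by 0.40 on the log2 scale, and the share of higher genes among all genes past 2-fold was 55.4% with TMM, 70.5% with total counts and 79.0% with reference genes. The members' median lay 0.18 above that of all genes, a gap no scaling can move, 0.15 above after removal of the GC and length trend and 0.21 above that of protein-coding genes. Across the 5 scalings, 33 members stayed above 0, Psma6 stayed below 0, and 15 had a sign that depended on scaling, Psmb5 (-0.39 to 0.04) and Psmb6 (-0.40 to 0.04) among them. With total counts 7 members were at least 2-fold higher, against 20.6% of all genes. The medians were then 0.46 for all members, 0.58 for the core and 0.31 for the 19S particle, beside 0.28 for all genes. With reference genes 8 members were at least 2-fold higher, against 25.8% of all genes. The medians in the same order were 0.63, 0.74 and 0.47, beside 0.45 for all genes. Removal of the GC and length trend gave medians of 0.16 for all members and 0.21 for the core. The count of higher members was 8 at 1.5-fold (26.4% of all genes) and 2 at a mean of 10 CPM (11.6% of all genes). At 10 CPM Psmb9 and Psmc3ip drop out by construction. Chosen after seeing the data were the removal of Psmc3ip, the lengths and the restriction to the 26 members with under 1% shared words and no exon overlap. That restriction left 0 higher members (14.6% of all genes) and a core median of 0.19. Psmb8, Psmb9, Psme2 and Psmc3ip dropped out, since all of them overlap or share sequence with another gene. Exon union length put the Psmb8, Psmb9 and Psmb10 shares at 8.20%, 6.05% and 24.7% in the Cpeb4 shRNA library, and the Psmb8 and Psmb10 shares at 0.872% and 27.2% in the control library. Without length the 3 shares were 25.2%, 11.2% and 14.0% in the Cpeb4 shRNA library and 3.20%, 1.80% and 15.7% in the control library. DESeq2 (1.42.0) size factors, upper-quartile scaling, thinning and no filter left 4 higher members, against 13.8% to 16.9% of all genes. Under each alternative run, 0 members were at least 2-fold lower, against 6.88% to 15.4% of all genes.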

Other observations

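The 3 pseudogene rows that the naming rule left out were read separately. Psma5-ps had 1227 counts in the Cpeb4 shRNA library and 384 counts in the control library (log2 ratio 0.85, counting interval 0.69 to 1.02), near the 0.70 of Psma5. Psmb7-ps2 had 3 counts in the Cpeb4 shRNA library and 20 counts in the control library, and Psmb6-ps2 had 4 and 3 counts in the same order. The processed pseudogene Gm13835, which shares words with Psma3, had 6675 counts in the Cpeb4 shRNA library and 3170 counts in the control library, a log2 ratio of 0.25 beside 0.22 for Psma3.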
